A study of Mus musculus with 1 sample.

Results

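Gfi1 and Gfi1b are 2 of the 32285 genes counted in a single-cell RNA-seq library of mouse bone marrow progenitors. Their rows were found by gene symbol alone, and each symbol matched 1 row of the count matrix. The pair itself was chosen with earlier results of these data known. The cells came from C57BL/6 mice with floxed Brd9 alleles (Brd9fl/fl, CD45.2+) and no Cre deletion, the control arm of a study of Brd9 loss, and were sorted as lineage-negative and Kit-positive. The mice had received pIpC, an inducer of interferon, in 3 doses of 20 mg/kg from 4 weeks, and were sampled 8 weeks after it. Whether the 4 weeks count from birth or from a transplant was not settled. The labels of this sample name a transplant donor and a CD45.1+ recipient while the series text names primary mice, so which applied was not settled. There is 1 library, replicate 1 of its group, so no test was possible. All intervals are exact 95% intervals of counting error alone, and say nothing of how mice, sorts or libraries vary.

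Gfi1 and Gfi1b encode closely related nuclear repressors. Each has a SNAG domain at its amino end, which binds the LSD1 and CoREST corepressor complex, and C-terminal zinc fingers that read a DNA site with the core AATC. Gfi1 is known for its role in granulocytes, lymphocytes and blood stem cells, whereas Gfi1b is known for its role in red cells and platelets. Each protein is also known to bind and repress its own gene and that of its relative, so that cells tend to use one or the other.

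In the GENCODE M21 annotation of GRCm38, Gfi1 (ENSMUSG00000029275) is a protein-coding gene on the minus strand of chromosome 5, from 107716657 to 107726036. It lies between Rpap2 and Evi5, 18759 bases from the latter. The gene A430072P03Rik overlaps it on the other strand, and 10x libraries keep the strand. Gfi1b (ENSMUSG00000026815) is a protein-coding gene on the minus strand of chromosome 2, from 28609450 to 28621982, between Gtf3c5 and Tsc1, and overlaps no other annotated gene. Tsc1 lies 19246 bases away. Both genes have 4 annotated transcripts.

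The bases before the start sites are shown because each protein is known to act on both genes. The sequences are the 250 bases before a start site, from RefSeq on GRCm38.p6, read along the gene's own strand, and capitals mark each AATC and its reverse complement GATT.
Gfi1b, chr2:28621983-28622232, minus strand: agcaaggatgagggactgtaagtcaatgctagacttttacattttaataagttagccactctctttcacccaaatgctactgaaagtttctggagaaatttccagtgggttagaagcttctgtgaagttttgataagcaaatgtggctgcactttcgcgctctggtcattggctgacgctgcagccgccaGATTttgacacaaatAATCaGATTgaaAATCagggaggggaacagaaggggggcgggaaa
Gfi1, chr5:107724344-107724593, minus strand: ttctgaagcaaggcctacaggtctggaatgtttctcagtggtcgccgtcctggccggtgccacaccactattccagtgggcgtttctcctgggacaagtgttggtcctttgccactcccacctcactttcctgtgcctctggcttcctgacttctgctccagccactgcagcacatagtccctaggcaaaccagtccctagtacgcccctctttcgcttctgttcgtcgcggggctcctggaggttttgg
The Gfi1b window held 4 matches, which began 60, 45, 40 and 33 bases before the start site. The Gfi1 window shown held 0. A second Gfi1 window, before another start site, held 1 match, which lay in an exon of another transcript. Of 32851 such windows in the genome table, 69.0% held at least 1 match and 7.04% held 4 or more. The letters GATA (or TATC) occurred once in the Gfi1b window, 119 bases before the start site and apart from the AATC matches, and in neither Gfi1 window, against 53.6% of all windows with at least 1. These are matches of letters and not sites shown to be bound.

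As sorted, 65.8% of the cells kept had a UMI of Kit. The library held 8817 barcodes, and the study's cell filter kept 7645 cells with 1592 to 49991 unique molecular identifiers (UMIs, each a captured transcript molecule counted once) and a median of 18696. Scrublet, which scores how much a barcode looks like a pair of cells, marked 265 of them (3.47%) as doublets, and these were kept. Levels are UMIs of a gene per 1000000 UMIs of a group of cells (CPM). Cells were assigned to 13 lineage gates from marker genes that include neither member. A marker was on in a cell above 2 times its mean CPM, and a gate asked for 2 markers on. This rule was set after the marker levels had been seen. The gates placed 6325 cells, while 911 met no gate and 409 met several. Exactly 2 markers were on in 304 of the 658 neutrophil gate cells, 122 of the 1261 erythroid gate cells and 357 of the 863 stem gate cells. Where shares of cells with a UMI are compared, each cell was thinned at random to 5000 UMIs, which 7546 cells allowed.

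Over all cells kept, Gfi1 had 2411 UMIs, which is 15.9 CPM (interval 15.2 to 16.5), and was seen in 1426 cells (18.7%). Gfi1b had 6772 UMIs, which is 44.6 CPM (interval 43.5 to 45.7), and was seen in 2321 cells (30.4%). After thinning, 6.28% of cells had a Gfi1 UMI and 14.8% a Gfi1b UMI. No cell had more than 8 Gfi1 or 19 Gfi1b UMIs.

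Gfi1 was highest in the granulocyte branch. Its level was 71.8 CPM (interval 67.5 to 76.4) in the 658 cells of the neutrophil gate, which is led by S100a8 and S100a9, calcium-binding proteins of neutrophils. It was 41.1 CPM (interval 37.3 to 45.0) in the 462 cells of the granulocyte-monocyte gate, set by primary granule genes such as Elane and Mpo. The monocyte gate, 1563 cells, was at 9.25 CPM (interval 8.25 to 10.3). Gfi1 was thus 7.76-fold higher in the neutrophil than in the monocyte gate (interval 6.83 to 8.84), and the granulocyte-monocyte gate stood 4.44-fold above the monocyte gate (interval 3.83 to 5.15). The neutrophil gate held 8.61% of the cells and 41.9% of all Gfi1 UMIs. Against all other cells the neutrophil gate was 7.07-fold higher (interval 6.51 to 7.67), and 2.70% of 13479 genes were 2-fold or more higher beyond counting error in that comparison. For Gfi1b the same comparison ran the other way, as it did for 25.8% of genes.

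Below these gates the Gfi1 levels were closer together. They were 21.3 CPM (interval 12.4 to 34.1, from 17 UMIs) in the T or innate lymphoid gate, 13.01 CPM (interval 10.02 to 16.6) in the Flt3 lymphoid-primed gate, 8.87 CPM (interval 6.77 to 11.4) in the basophil or mast gate and 7.81 CPM (interval 6.10 to 9.85) in the stem gate. Conventional dendritic cells stood at 3.72 CPM from 5 UMIs. The lowest levels were in the erythroid gate, at 1.46 CPM (interval 1.11 to 1.89), and in the megakaryocyte gate, at 0.784 CPM (interval 0.315 to 1.61, from 7 UMIs in 492 cells). In this order of 10 gates, neighbours differed beyond counting error between neutrophil and granulocyte-monocyte, between granulocyte-monocyte and T or innate lymphoid, and between Flt3 lymphoid-primed and monocyte. The other 6 neighbouring pairs did not. The 28 cells of the eosinophil gate, led by the granule genes Prg3, Prg2 and Epx, were at 51.9 CPM (interval 32.5 to 78.5, from 22 UMIs), which is 0.722 of the neutrophil level (interval 0.451 to 1.10).

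Gfi1b was highest in the erythroid branch. In the 1261 cells of the erythroid gate, set by genes such as Klf1, Epor and Ermap, it stood at 123 CPM (interval 119 to 126). It was 69.9 CPM (interval 64.5 to 75.6) in the megakaryocyte gate, set by platelet genes such as Pf4, Gp9 and Ppbp. The stem gate, 863 cells set by Procr, Hlf, Mecom, Fgd5 and Robo4, was next at 41.1 CPM (interval 37.1 to 45.5). Erythroid cells were 1.76-fold above megakaryocyte cells (interval 1.62 to 1.92), and the latter 1.70-fold above stem cells (interval 1.49 to 1.94). The erythroid gate held 16.5% of the cells and 70.8% of all Gfi1b UMIs. It was 7.01-fold above all other cells (interval 6.65 to 7.39), where 8.20% of genes were 2-fold or more higher beyond counting error. Gfi1 was lower in that comparison, as were 31.3% of genes. Between the neutrophil and erythroid gates directly, Gfi1 was 49.1-fold higher in the former (interval 37.6 to 65.3) and Gfi1b had 0.0185 of its erythroid level there (interval 0.0126 to 0.0261). In that comparison 15.0% of 11004 genes were higher and 21.0% lower.

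Intermediate Gfi1b levels were found in the T or innate lymphoid gate (26.3 CPM, interval 16.3 to 40.3, from 21 UMIs), the basophil or mast gate (25.3 CPM, interval 21.6 to 29.4), the conventional dendritic gate (17.1 CPM, interval 10.9 to 25.7) and the Flt3 lymphoid-primed gate (10.6 CPM, interval 7.89 to 13.9). These 4 did not differ from their neighbours in the order beyond counting error, apart from T or innate lymphoid cells against the stem gate above them and the Flt3 lymphoid-primed gate against those below. The neutrophil, monocyte and granulocyte-monocyte gates had 2.27, 2.05 and 1.83 CPM and did not differ from each other beyond counting error. Gfi1b was therefore 12.3-fold higher in the basophil or mast gate than in the monocyte gate (interval 9.26 to 16.5), while Gfi1 differed by less than counting error between the same gates, at a ratio of 0.958 (interval 0.715 to 1.27). The Gfi1b fold is of measured levels only, since the monocyte level cannot be told apart from free RNA, as described below. The B lineage gate of 22 cells, in which the immunoglobulin genes Igha and Jchain were among the leading genes, had 4 Gfi1 UMIs and 0 Gfi1b UMIs, where 3 UMIs would be 8.31 CPM and the exact upper limit is 10.2 CPM. A gate of 36 cells set by Siglech, Ccr9, Cox6a2, Klk1 and Pacsin1 was led by Ly6d, Cox6a2 and Dntt and stayed unnamed. It had 6 Gfi1 and 10 Gfi1b UMIs.

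**Figure D1:**
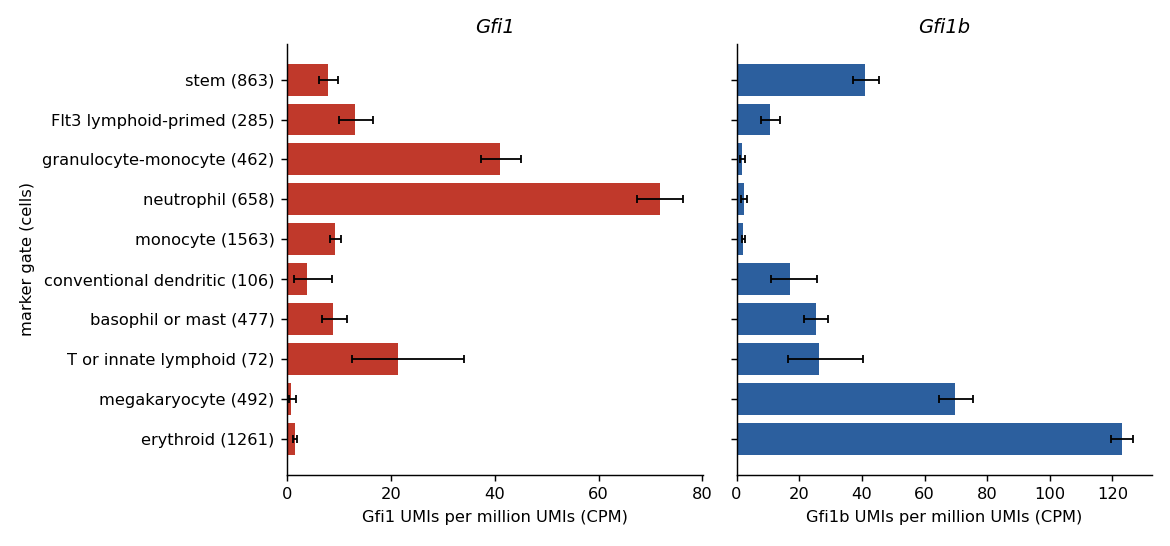
Gfi1 (left) and Gfi1b (right) UMIs per 1000000 UMIs in the 10 gates of at least 50 cells, with the number of cells in brackets. Bars are pooled levels and error bars are exact Poisson intervals of counting error. Gfi1 reaches 71.8 CPM in the neutrophil gate and Gfi1b 123 CPM in the erythroid gate, with Gfi1b at 41.1 CPM in the stem gate.

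The balance of the pair moved across the gates. Of the UMIs of both genes together, Gfi1 made up 96.9% in the neutrophil gate (interval 95.7 to 97.9), 95.7% in the granulocyte-monocyte gate (interval 93.5 to 97.4) and 81.8% in the monocyte gate (interval 77.6 to 85.6). It made up 55.2% in the Flt3 lymphoid-primed gate (interval 45.7 to 64.4) and 44.7% in the T or innate lymphoid gate (interval 28.6 to 61.7). The share was 26.0% in the basophil or mast gate (interval 20.4 to 32.1) and 16.0% in the stem gate (interval 12.7 to 19.7). It was 1.18% in the erythroid gate (interval 0.891 to 1.52) and 1.11% in the megakaryocyte gate (interval 0.447 to 2.27). Because reads come from the 3' ends of transcripts, these shares compare gates with each other and do not set the amounts of the genes' products against each other.

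Droplet libraries hold free RNA from broken cells, so low levels were set beside those of genes that mark the source gate. These comparison genes were picked after the gates' leading genes had been seen. Gfi1b in the neutrophil, granulocyte-monocyte and monocyte gates was at 1.85%, 1.49% and 1.67% of its erythroid level. Rhag, a red cell membrane gene, was at 1.38%, 1.25% and 0.867%, and the globin gene Hbb-bs at 1.30%, 2.50% and 1.14%. In the monocyte gate the Gfi1b interval (1.30 to 2.12%) lay above those of Rhag (0.631 to 1.16%) and Hbb-bs (1.04 to 1.24%). It overlapped those of Gata1, the main factor of red cells and megakaryocytes (1.82 to 2.78%), and Sphk1, a sphingosine kinase gene (0.931 to 1.61%). In the other 2 gates the intervals of Gfi1b and Rhag overlapped. Levels this low cannot be told apart from free RNA here. In the stem gate Gfi1b was at 33.5% of its erythroid level (interval 30.0 to 37.2), against 1.35% for Rhag, 1.86% for Hbb-bs and 9.09% for Gata1. In the basophil or mast gate it was at 20.6% (interval 17.5 to 23.9), against 1.82% for Rhag, 2.47% for Hbb-bs and 28.6% for Gata1, which is also known from mast cells. Gfi1 in the erythroid and megakaryocyte gates was at 2.04% and 1.09% of its neutrophil level, against 1.06% and 1.23% for Trem3, a receptor gene of myeloid cells, and 0.815% and 1.28% for Pglyrp1, a granule protein gene. A comparison gene less particular to the neutrophil gate, Nkg7, a granule membrane gene, was at 2.81% and 17.5%. The Gfi1 interval in the erythroid gate (1.53 to 2.66%) lay above those of Trem3 and Pglyrp1 but not above that of Nkg7 (2.66 to 2.97%). In the stem gate Gfi1 was at 10.9% (interval 8.42 to 13.8), against 1.17% for Trem3, 4.97% for Pglyrp1 and 8.43% for Nkg7, whose interval (7.90 to 8.99) overlapped that of Gfi1.

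Shares of thinned cells with a UMI followed the levels. A Gfi1 UMI was found in 27.1% of neutrophil gate cells (interval 23.7 to 30.6), 18.0% of granulocyte-monocyte cells, 4.44% of monocyte cells, 3.17% of stem cells (interval 2.10 to 4.58), 0.558% of erythroid cells and 0 of 490 megakaryocyte cells, which allows a share of up to 0.612% by a limit of 3 cells and up to 0.750% by the exact interval. A Gfi1b UMI was found in 41.6% of erythroid cells (interval 38.8 to 44.4), 29.6% of megakaryocyte cells, 18.9% of stem cells (interval 16.3 to 21.7), 9.27% of basophil or mast cells and 0.456% of neutrophil cells. Without thinning, 72.8% of neutrophil cells had a Gfi1 UMI and 87.4% of erythroid cells a Gfi1b UMI, at median depths of 20846.5 and 32381 UMIs.

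Whether the pair excluded each other in single cells was asked next. After thinning, 20 of 7546 cells had a UMI of both genes. If the 474 cells with Gfi1 and the 1117 cells with Gfi1b were spread independently, 70.2 would have. The ratio of observed to expected cells was 0.285 (interval 0.174 to 0.440). Among all genes with at least 5 expected cells, 20.5% were seen with Gfi1 less often than expected beyond counting error, and 13.8% with Gfi1b. The Gfi1b ratio with Gfi1 was low among these, since 2.76% of 11070 genes had a lower one. Of 12315 genes set against Gfi1b, 2.40% had a lower ratio than Gfi1. In unthinned cells 153 had both genes against 433 expected, a ratio of 0.353 (interval 0.2996 to 0.414). The deficit was deeper at 2 or more UMIs of each gene, with 17 cells against 106 expected, a ratio of 0.160 (interval 0.0931 to 0.256).

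**Figure D2:**
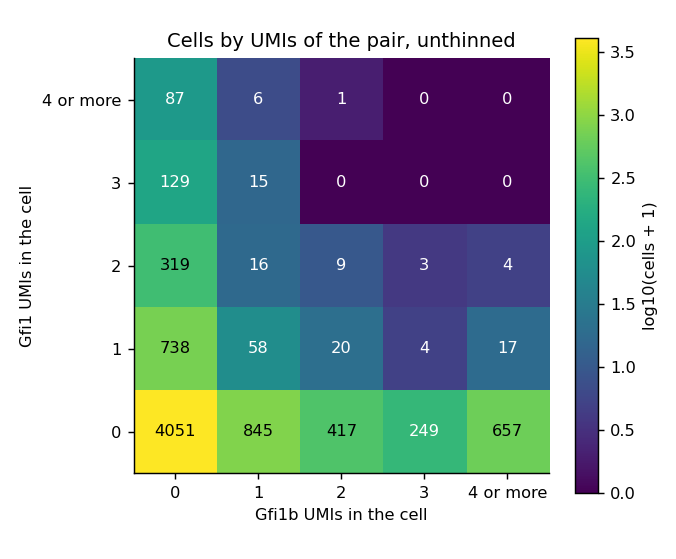
Number of unthinned cells by Gfi1 UMIs (vertical axis) and Gfi1b UMIs (horizontal axis), where the last class is 4 or more and the colour is log10(cells + 1). No cell had 3 or more UMIs of both genes, while 657 cells had 4 or more Gfi1b UMIs and 0 of Gfi1, and 87 cells the reverse.

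Most of this deficit was between gates rather than within them. With the expected count summed gate by gate, 23.6 thinned cells were expected to have both genes, and the ratio was 0.847 (interval 0.517 to 1.31). In unthinned cells 177 were expected, a ratio of 0.863 (interval 0.732 to 1.01). Summed over gates and 10 classes of depth the ratio was 0.834 (interval 0.707 to 0.977). Summed over gates alone, with doublet calls removed, it was 0.820 (interval 0.681 to 0.978), so a small deficit remained beyond counting error in these last 2 settings. It was 0.891 (interval 0.731 to 1.08) over the 6325 cells in a gate, and 0.995 (interval 0.843 to 1.17) when the expected count was summed over 22 graph clusters made without the pair. With the expected count by gate, 2.82% of genes were seen with Gfi1 less often than expected and 1.33% with Gfi1b. Under a stricter filter, which kept cells of 5000 UMIs or more with less than 5% mitochondrial UMIs, the ratio by gate was 0.4998 (interval 0.216 to 0.985).

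No exclusion was detectable within the stem gate at this depth. After thinning, 7 of 852 stem cells had both genes against 5.10 expected, a ratio of 1.37 (interval 0.552 to 2.83). Unthinned, 15 of 863 had both against 16.3 expected, a ratio of 0.919 (interval 0.515 to 1.52). The Flt3 lymphoid-primed gate had 7 cells against 7.81 expected, the basophil or mast gate 11 against 12.8, the granulocyte-monocyte gate 11 against 9.90, the neutrophil gate 16 against 19.7, and the erythroid gate 31 against 35.0, all within counting error. Cells in no gate had fewer than expected, 26 against 44.9, a ratio of 0.579 (interval 0.378 to 0.849). These cells are a mixture, and the ratio was 1.07 (interval 0.699 to 1.57) when the expected count was summed over graph clusters. Summed over 3 classes of depth it stayed below 1, at 0.661 (interval 0.432 to 0.969). Cells in several gates had more, 19 against 11.1 (ratio 1.71, interval 1.03 to 2.66), but with the expected count summed over 3 classes of depth the ratio was 1.17 (interval 0.707 to 1.83).

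Cells with both genes carried more doublet calls. Of the 153 cells, 30 (19.6%, interval 13.6 to 26.8) were marked, against 2.59% of cells with Gfi1 alone (interval 1.79 to 3.62), 4.29% of cells with Gfi1b alone (interval 3.48 to 5.23) and 2.69% of cells with neither. Their median depth was 25346 UMIs, against 21630.0 with Gfi1 alone and 22567.5 with Gfi1b alone. The part of doublets in the cells with both genes was not tested. With the marked cells removed the ratio over all unthinned cells was 0.303 (interval 0.252 to 0.362).

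**Figure D3:**
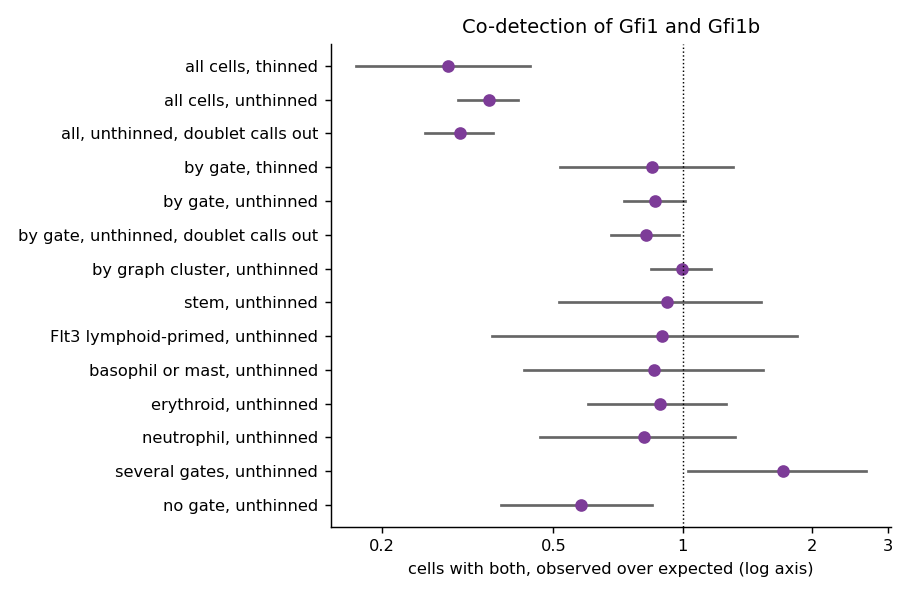
Cells with a UMI of both genes as a ratio of observed to expected, on a log axis, over all cells, with the expected count summed by gate or graph cluster, and within gates. Points are ratios, lines are exact Poisson intervals of the observed count and the dotted line marks 1. Ratios over all cells lie between 0.285 and 0.353, and those with the expected count by gate between 0.820 and 0.863.

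Each gene was then set beside other regulators of the blood lineages in thinned cells. Gfi1 was seen with Gata1 in 5 cells against 56.9 expected (ratio 0.0879, interval 0.0285 to 0.205), a lower ratio than with Gfi1b. This ratio stayed below 1 with the expected count by gate, at 0.297 (interval 0.0963 to 0.692). With Cebpe, a factor of granulocyte maturation and a marker of the neutrophil gate, Gfi1 shared 183 cells against 51.8 expected, 3.53-fold (interval 3.04 to 4.08). That fell to 1.15 (interval 0.989 to 1.33) by gate. With Irf8, a monocyte and dendritic cell factor, Gfi1 was within counting error in both counts, at 0.865 (interval 0.726 to 1.02) and 0.922 (interval 0.773 to 1.09).

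Gfi1b was seen with Gata1 in 316 cells, 2.36-fold the expected count (interval 2.10 to 2.63), and with Gata2, a stem and mast cell factor, in 473 cells, 1.46-fold (interval 1.33 to 1.60). By gate the Gata1 ratio was 1.11 (interval 0.992 to 1.24) and the Gata2 ratio 1.13 (interval 1.03 to 1.24). Tal1, a partner of GATA factors, was at 1.85 overall (interval 1.68 to 2.03) and 1.12 by gate (interval 1.02 to 1.23). Other regulators known from stem cells were not above the expected count over all cells. Erg was at 0.995 (interval 0.838 to 1.17), Fli1 at 1.01 (interval 0.905 to 1.12) and Runx1 at 0.966 (interval 0.880 to 1.06), and Lyl1 was below it, at 0.865 (interval 0.770 to 0.968). Gfi1b and Irf8 were seen together less often than expected over all cells, at 0.235 (interval 0.188 to 0.290), and by gate, at 0.731 (interval 0.585 to 0.901). With Cebpa, a myeloid factor, the ratios were 0.381 (interval 0.3001 to 0.477) and 0.934 (interval 0.736 to 1.17). For scale, Gata1 and Spi1, known antagonists, were at 0.345 (interval 0.290 to 0.406) and 0.812 by gate (interval 0.683 to 0.958). Klf1, an erythroid gate marker, and Fli1, another such pair, were at 0.362 (interval 0.304 to 0.429) and 0.884 by gate (interval 0.741 to 1.05).

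Counted over the 14 regulators, Gfi1 was seen less often than expected with 6 and more often with 5, and Gfi1b less often with 5 and more often with 6. Over all genes, 20.5% were seen less often and 5.83% more often than expected with Gfi1, and 13.8% and 21.1% with Gfi1b. In levels, 7 of the 14 were 2-fold or more higher in the neutrophil than in the erythroid gate, Cebpe, a gate marker, among them, and 5 were lower, where 15.0% of genes were higher and 21.0% lower. By gate, 1 regulator, Gata1, stayed below with Gfi1 and none above, where 2.82% of genes were below and 1.02% above. For Gfi1b, Cebpe stayed below, and Gata2 and Tal1 above, where 1.33% of genes were below and 0.955% above.

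Cells outside the committed gates that carried a single member differed in other lineage genes. In the 911 cells of no gate, 118 had Gfi1 alone and 258 had Gfi1b alone, at median depths of 23028.5 and 12220.5 UMIs. The part of depth in the differences between these classes was not tested. The cells with Gfi1 alone had 90.8 CPM of Cebpa against 23.3, a ratio of 3.90 (interval 3.03 to 5.06), and 173 CPM of Spi1, the PU.1 gene, against 77.5, a ratio of 2.23 (interval 1.92 to 2.60). Mpo, myeloperoxidase, was at 3929.8 against 613 CPM (ratio 6.41, interval 6.12 to 6.72) and Flt3 at 31.6 against 9.83 CPM. The cells with Gfi1b alone had more of the erythroid and megakaryocyte genes. Gata1 was at 59.8 against 3.31 CPM, where the ratio of Gfi1 cells to Gfi1b cells was 0.0553 (interval 0.0249 to 0.107). Klf1 was at 40.7 against 2.21 CPM and Pf4 at 309 against 23.9 CPM. Itga2b, the platelet integrin CD41, was at 194 against 30.9 CPM. The stem cell factors Gata2 (244 against 43.4 CPM) and Meis1 (237 against 56.2 CPM) were also higher with Gfi1b alone.

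The stem gate showed part of the same split, between 40 cells with Gfi1 alone and 241 with Gfi1b alone, at median depths of 8215 and 9886 UMIs. Several lineage genes did not differ beyond counting error between these classes. They were Spi1 (ratio 1.20, interval 0.829 to 1.70), Klf1 (0.567, interval 0.0650 to 2.28), Flt3 (1.98, interval 0.722 to 4.75) and Irf8 (0.681, interval 0.133 to 2.19). The erythroid gate marker Car1 did not differ either (1.09, interval 0.713 to 1.60). Cells with Gfi1b alone had more Pf4 (146 against 23.7 CPM, ratio 0.163, interval 0.0775 to 0.302) and Itga2b (117 against 28.5 CPM, ratio 0.243, interval 0.124 to 0.430). Gata1 had 52 UMIs there and 1 UMI in the cells with Gfi1 alone. Cells with Gfi1 alone had more Mpo (973 against 203 CPM, ratio 4.79, interval 4.21 to 5.45) and Cebpa (26.1 against 7.67 CPM, ratio 3.40, interval 1.49 to 7.32), but 1 cell held 38.8% of the Mpo UMIs of its class. The stem markers Procr (133 against 74.3 CPM) and Hlf (527 against 383 CPM) were higher with Gfi1 alone, at ratios of 1.79 (interval 1.31 to 2.41) and 1.38 (interval 1.19 to 1.59). Of the 6 cycle genes, Mki67 and Pcna were lower, at 0.666 (interval 0.515 to 0.851) and 0.651 (interval 0.486 to 0.858), while the other 4 did not differ beyond counting error, with ratios from 0.833 (Top2a, interval 0.666 to 1.03) to 1.06 (Mcm5, interval 0.744 to 1.48). By Vwf, which marks platelet-biased stem cells, neither gene differed beyond counting error. Stem cells with a Vwf UMI had 42.4 CPM of Gfi1b and those without 40.1 CPM, a ratio of 1.06 (interval 0.859 to 1.30). For Gfi1 these were 6.70 and 8.68 CPM, a ratio of 0.772 (interval 0.460 to 1.27).

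**Figure D4:**
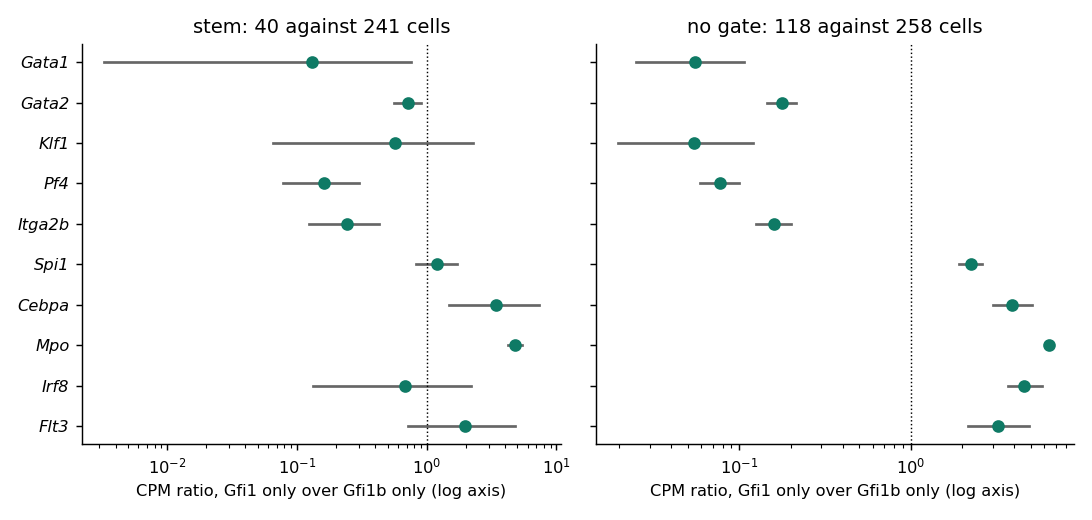
Ratio of CPM in cells with Gfi1 alone to CPM in cells with Gfi1b alone for 10 lineage genes, on a log axis, in the stem gate (left) and in cells of no gate (right). Points are ratios, lines are exact intervals of counting error and the dotted line marks 1. In cells of no gate the 5 erythroid, megakaryocyte and stem genes at the top lie below 1 and the 5 myeloid and lymphoid-primed genes above it.

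In the basophil or mast gate, 38 cells had Gfi1 alone and 114 had Gfi1b alone. Elane, neutrophil elastase, was at 2709.9 against 231 CPM (ratio 11.7, interval 10.6 to 13.1, with up to 24.6% of a class's UMIs in 1 cell). Pf4 was at 20.0 against 253 CPM, with up to 53.8% in 1 cell. Not all lineage genes went the same way. Cebpa was lower with Gfi1 alone (ratio 0.743, interval 0.585 to 0.937). Car1, an erythroid gate marker, was higher (ratio 1.70, interval 1.29 to 2.23, with up to 52.8% in 1 cell). Gata1 (0.730, interval 0.416 to 1.22) and Klf1 (0.988, interval 0.509 to 1.82) did not differ beyond counting error. In the Flt3 lymphoid-primed gate, where 46 cells had Gfi1 alone and 35 Gfi1b alone, Cebpa was at 79.4 against 40.7 CPM and Gata1 had 1 against 11 UMIs. Myeloid genes were mixed in this gate. Mpo was higher with Gfi1 alone (ratio 1.65, interval 1.52 to 1.80, with up to 27.7% in 1 cell). Irf8 was lower, at 149.8 against 217.4 CPM (ratio 0.689, interval 0.539 to 0.880, with up to 23.7% in 1 cell). Spi1, at 163.2 against 162.7 CPM, did not differ beyond counting error. Dntt, the lymphoid polymerase gene, was at 363 against 609 CPM (ratio 0.597, interval 0.514 to 0.694). These intervals treat UMIs as independent and are too narrow where a few cells hold many of them.

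Along maturation, each gene rose modestly in its own branch. Cells of the neutrophil gate were ordered by the summed share of later genes (S100a8, S100a9, Ngp, Camp, Ltf and Lcn2) and split into 4 bins of equal size. Gfi1 was at 62.1, 72.0, 72.4 and 83.7 CPM, and the last bin was 1.35-fold above the first (interval 1.13 to 1.61). The erythroid gate was ordered likewise by a list of later genes that includes Slc4a1, Alas2, Hba-a1 and Hbb-bt. Gfi1b was at 98.5, 116, 138 and 133 CPM in its bins, 1.35-fold from first to last (interval 1.24 to 1.48). In the same erythroid bins the stem cell factor receptor gene Kit went from 139 to 6.34 CPM and the proliferation gene Mki67 from 387 to 1264 CPM. Median depth in the erythroid bins was 25522.5, 35075, 35920.0 and 30440.0 UMIs.

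**Figure D5:**
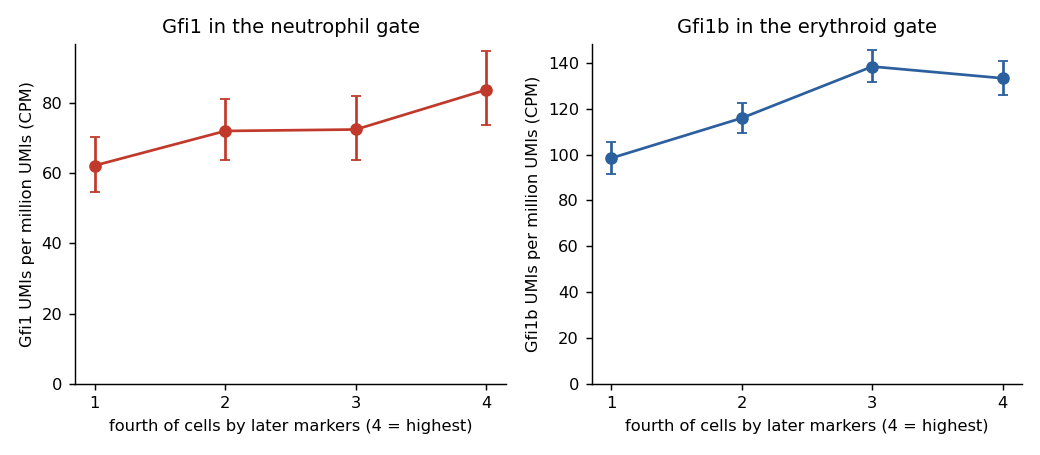
Gfi1 in the neutrophil gate (left) and Gfi1b in the erythroid gate (right), in UMIs per 1000000 UMIs, in 4 equal bins of cells ordered by later markers of the branch. Points are pooled levels and bars exact Poisson intervals. Gfi1 goes from 62.1 to 83.7 CPM, and Gfi1b from 98.5 to 133 CPM with its highest value, 138 CPM, in the third bin.

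The corepressors that the SNAG domain recruits were present in both branches. Kdm1a, the LSD1 gene, was at 57.4 CPM in the neutrophil gate and 74.4 CPM in the erythroid gate, a ratio of 0.772 (interval 0.713 to 0.834). Rcor1, a CoREST gene, was at 48.4 and 85.7 CPM (ratio 0.565, interval 0.520 to 0.614), and Hdac1 at 76.1 and 130.2 CPM (ratio 0.585, interval 0.547 to 0.625). Of 11 corepressor genes with at least 50 UMIs, 1 was 2-fold or more higher in the neutrophil gate, Phf21a, the gene of the CoREST subunit BHC80 (ratio 2.41, interval 2.01 to 2.90), and 1 lower, Gse1, also found with this complex (ratio 0.293, interval 0.260 to 0.329), against 15.0% and 21.0% of all genes. The median ratio of the list was 0.590, and that of all 11004 genes 0.810. Against all other cells, the stem gate had 5 of 12 corepressor genes 2-fold or more higher and 0 lower, where 23.9% of genes were higher and 8.24% lower. Among these were Rcor2, Phf21a, Gse1 and Ajuba, from 2.05 to 3.55-fold. The list median was 1.60 and that of all genes 1.23.

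Genes known from other work to be repressed by Gfi1 or Gfi1b were described in the same way. Of 10 with enough UMIs, 6 were 2-fold or more higher in the neutrophil than in the erythroid gate (Id2, Irf8, Spi1, Hoxa9, Cdkn1a and Rgs18) and 2 lower (Egr1 and Tgfbr3), against 15.0% and 21.0% of all genes. Spi1 was at 218 against 10.6 CPM and Cdkn1a, a cell cycle inhibitor, at 9.52 against 2.26 CPM. Against all other cells, 7 of 11 were lower in the neutrophil gate and 0 higher, where 25.8% of genes were lower and 2.70% higher, with a list median of 0.135 against 0.703 over all genes. In the erythroid gate 10 of 11 were lower and 0 higher, where 31.3% of genes were lower and 8.20% higher, with a list median of 0.0759 against 0.855. The stem gate had 6 of 11 higher, led by the early response gene Egr1 (601 against 72.0 CPM, ratio 8.35, interval 8.08 to 8.63) and by Meis1 (345 against 49.8 CPM, ratio 6.92, interval 6.63 to 7.22), and 3 lower, Id2, Irf8 and Spi1, where 23.9% of genes were higher and 8.24% lower. Seen with Gfi1, 0 of 11 differed from the count expected by gate beyond counting error. Over all genes 2.82% were below that count and 1.02% above, so 0 of 11 says little about this list. Seen with Gfi1b, Id2 and Irf8 were below the count expected by gate, at 0.711 (interval 0.495 to 0.989) and 0.731. Meis1 was among those above it, at 1.10 (interval 1.0005 to 1.22). With Gfi1b, 1.33% of all genes were below and 0.955% above. None of the 7 other SNAG zinc finger genes looked for, such as Snai1 and Insm1, reached 50 UMIs. Of the 6 cell cycle genes, 5 were 2-fold or more lower in the neutrophil than in the erythroid gate, where 21.0% of genes were lower.

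Over the 10 gates of at least 50 cells, Gfi1 and Gfi1b levels ran against each other, with a Pearson correlation of log2(CPM + 10) of -0.73. The gates share 1 library and this is a description. Among 10115 genes outside the marker lists, those most like Gfi1 were Trim45 (0.95), Tbc1d15 (0.95), Slc28a2 (0.94), B4galt6 (0.94) and Mrgpra2b (0.92). Those most like Gfi1b were Pheta2 (0.99), Sirt2 (0.97), Sept8 (0.97), Car2 (0.96) and 8030462N17Rik (0.96). Trim45 had 39.5 CPM in the neutrophil gate and 1.74 CPM in the erythroid gate. Car2, a carbonic anhydrase of red cells, had 3025 CPM in the erythroid gate, 866 CPM in the stem gate and 50.9 CPM in the neutrophil gate.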

How the data were processed

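One 10x Chromium 3' library was analysed. The deposited counts are raw UMIs, in whole numbers and without scaling, which the authors obtained with Cell Ranger 6.0.2 on mm10 according to the submitters' processing notes. The labels describe a bulk RNA kit, while the matrix has the form of the 10x library in the study's methods. The study's cell filter was applied: between 1000 and 50000 UMIs, between 1000 and 6500 genes and less than 7% mitochondrial UMIs, limits excluded. The other library of the study is not analysed here.

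The members, marker lists and tests were chosen with earlier results of these data known. Named genes are the members, the listed corepressors, regulators, known targets, SNAG genes and cycle genes, the listed pairs, the annotation's neighbours, and for each member the 5 genes outside the marker lists, with at least 500 UMIs, most correlated with it. Some genes were named after their values were seen: the free RNA comparison genes, leading genes, and Kit and lineage genes of single-member cells. Some listed genes entered the counts and the maturation order but are not reported by name here.

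Committed gates were given first, then stem, Flt3 lymphoid-primed and granulocyte-monocyte gates. A cell that met several gates went to the one ahead by 2 markers. Expected counts of cells with both genes are products of shares. Ratios of levels have conditional binomial intervals, levels and observed counts Poisson intervals, and shares Clopper-Pearson intervals (scipy 1.17.1). For Scrublet (scanpy 1.11.5) the expected doublet rate was set to 6%. The ratio, co-detection and thinning steps were tested on simulated data. With 1 library no test, batch check or replicate comparison could be made. The alternatives were other gate rules, cell filters, depths, denominators, doublet removal and graph clusters.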

Additional observations from a re-analysis of the deposited data

Results flagged for a closer look

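The barcodes removed by the cell filter enter no comparison above, and both genes had UMIs there above the level that 3 UMIs would give. In the 213 barcodes at or above the upper limits, Gfi1 was at 6.35 CPM (interval 5.01 to 7.93) and Gfi1b at 91.3 CPM (interval 86.0 to 96.9), against 15.9 and 44.6 CPM in the cells kept. Of these barcodes 34 had both genes, against 38.6 expected (ratio 0.880, interval 0.609 to 1.23). In the 908 barcodes removed for their mitochondrial share, Gfi1 was at 9.07 CPM (interval 6.16 to 12.9) and Gfi1b at 45.7 CPM (interval 38.8 to 53.4), at a median of 2400 UMIs. There 1 barcode had both genes, against 3.30 expected.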

How the results depend on the processing

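Of 103 alternative values over 15 results, 83 stayed within the interval of the main value and 20 moved out of it. Where the main interval of a ratio lay wholly above or below 1, 0 alternatives crossed to the other side. Ratios whose main interval held 1 did cross, such as co-detection by gate, which went from 0.847 to 1.28 with cells thinned to 3000 UMIs. The Gfi1 ratio of the neutrophil gate to all other cells was 5.89 with 3 markers asked for and 8.32 with graph clusters. The Gfi1b ratio of the erythroid gate was 6.32 with all deposited barcodes. The Gfi1b ratio of the stem gate, 0.918 (interval 0.824 to 1.02), was 1.05 under the stricter cell filter and 0.801 with graph clusters, so its side of 1 is not settled. The Gfi1 ratio of the stem gate, 0.476, was 0.634 with 3 markers asked for and 0.698 with graph clusters. With 1 marker it was 0.706 (interval 0.475 to 1.01), no longer below 1 beyond counting error. The Gfi1 ratio of the granulocyte-monocyte to the monocyte gate was 3.10 with 1 marker and 5.87 with 3, and graph clusters gave no granulocyte-monocyte cluster.

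The co-detection ratio over all cells was 0.488 with cells thinned to 3000 UMIs and 0.135 under the stricter cell filter. By gate it was 0.4998 under that filter. For cells in no gate, 0.515 after thinning, it was 1.78 at 3000 UMIs, 0 with 1 marker asked for and 1.42 with graph clusters. The share of neutrophil cells with a Gfi1 UMI was 72.8% unthinned and 21.0% at 3000 UMIs, and that of erythroid cells with a Gfi1b UMI 87.4% and 29.1%. The settings with graph clusters as strata, and unthinned cells without doublet calls, were chosen after seeing the data. No paired analysis was possible because there is 1 library. Single gates gave 0 to 7 thinned cells with both genes, so their ratios have wide intervals. The causes of these shifts were not tested.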
